A study of Canis lupus familiaris with 2 samples.

Results

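The 10 genes described here act late in the light response of photoreceptors, in its shutoff and in the resynthesis of cyclic GMP. They are *SAG*, *ARR3*, *GRK1*, *GRK7*, *RGS9*, *RCVRN*, *GUCA1A*, *GUCA1B*, *GUCA1C* and *GUCY2F*. They were chosen by name, and all 10 are listed on 1 row each in both dogs, among 34981 genes listed for N350 and 19947 for N354. Together they took 1.03% of the unique molecular identifiers (UMIs, each marking 1 captured mRNA molecule) of N350 and 1.5% of those of N354.

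Punches of neuroretina 5 mm across came from the dogs N350 and N354, both normal males of 40 weeks, and mRNAs were profiled cell by cell from their 3' ends. The 8900 cells of N350 held 24030707 UMIs (median 1298 a cell) and the 4392 cells of N354 held 9711202 (median 1204.5 a cell). Each dog is 1 library, and the dogs were counted on different gene lists, so that animal, library and gene list cannot be told apart. They share 6 cell barcodes.

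When light activates an opsin, a G protein-coupled receptor kinase phosphorylates it and an arrestin then caps it. *GRK1* and *GRK7* encode such kinases, and *SAG* and *ARR3* encode the arrestins named for rods and cones. RGS9 speeds the return of transducin to its resting state, and recoverin (*RCVRN*) holds the opsin kinase back while calcium is high. Retinal guanylate cyclases, 1 of them encoded by *GUCY2F*, rebuild cyclic GMP, and the activating proteins encoded by *GUCA1A*, *GUCA1B* and *GUCA1C* switch them on as calcium falls.

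Cells were placed in classes by the UMIs of other marker genes, so none of the 10 genes took part. Of the cells, 7685 of N350 and 3930 of N354 passed the markers of exactly 1 class. Rods numbered 5582 and 3012, cones 264 and 151, Müller glia 1103 and 442, and ON bipolar cells 266 and 234, in N350 and N354. OFF bipolar cells numbered 35 and 16, horizontal cells 90 and 20, and amacrine cells 270 and 34. The 7 rod markers together stood at 193 and 443 UMIs per 10000 UMIs in rods and at 11.4 and 8.28 in cones. The 8 cone markers stood at 377 and 483 in cones and at 4.81 and 0.968 in rods. A level below is a gene's UMIs in all cells of a class of 1 dog, per 10000 UMIs that those cells held. Ranges in brackets are exact 95% intervals that cover counting error only.

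The 10 genes fell into those of rods, those of cones and those of both. *SAG*, *GRK1*, *GUCA1B* and *GUCY2F* were lower in cones than in rods, *ARR3*, *GRK7* and *GUCA1C* were much higher, *GUCA1A* was moderately higher, and *RGS9* and *RCVRN* did not pass the test. Thus 8 of the 10 were called, 4 in each direction, at an adjusted p below 0.05 by edgeR's quasi-likelihood test on sums per dog and class with the dog as a block, where 17.5% of the 11909 genes tested were called, 9.54% higher and 7.94% lower in cones. The median log2 fold change was 0.40 over the 10 genes and -0.21 over all genes tested. Without the dog as a block 2 of the 8 calls, *GRK7* and *GUCY2F*, held. The log2 fold changes of the other 6, *SAG* (-3.40), *ARR3* (7.30), *GRK1* (-4.19), *GUCA1A* (1.16), *GUCA1B* (-3.95) and *GUCA1C* (6.62), kept their direction with adjusted p-values from 0.087 to 0.96 by edgeR. The 2 dogs are the only replicates. With the dog as a block, the p-values measure the spread left over all classes of the fit after a constant difference between the dogs is removed.

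**Figure D1:**
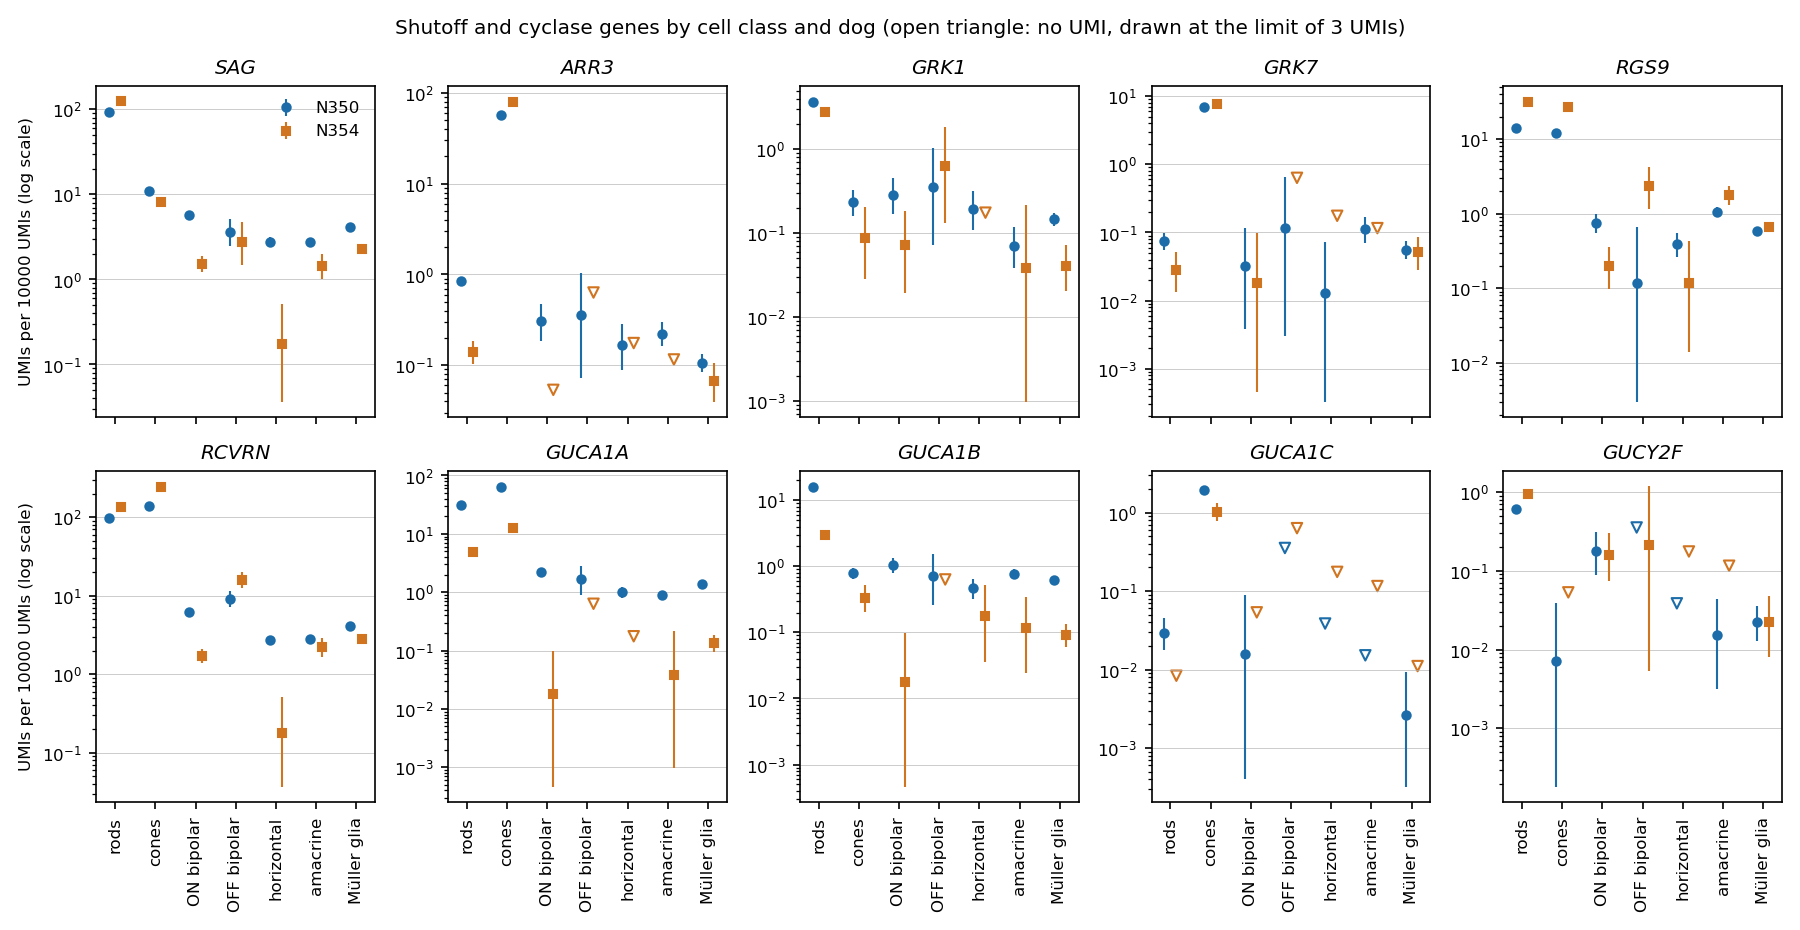
Level of each gene (UMIs per 10000 UMIs, log axis, with its own range in each panel) in 7 cell classes of N350 (circles) and N354 (squares), with exact Poisson 95% intervals. Open triangles mark a class without a UMI, drawn at the level of 3 UMIs. *SAG*, *GRK1*, *GUCA1B* and *GUCY2F* peak in rods and *ARR3*, *GRK7* and *GUCA1C* in cones of both dogs, while *RGS9*, *RCVRN* and *GUCA1A* are high in both photoreceptors.

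The arrestins came first in this division. *SAG* stood at 93.7 (93.0 to 94.4) in rods of N350 and 124 (123 to 125) in rods of N354. In cones its levels were 11.1 (10.6 to 11.7) and 8.23 (7.50 to 9.01). Rods of both dogs were thus above cones, with a log2 fold change of -3.49 ± 0.48 (SE, adjusted p = 2.7e-05 by edgeR) for cones over rods.

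*ARR3* was arranged the other way. Cones of N350 held it at 57.4 (56.2 to 58.7) and those of N354 at 79.1 (76.8 to 81.5), against 0.84 (0.78 to 0.91) and 0.14 (0.10 to 0.18) in rods. Cones were 68.1-fold (62.6 to 74.2) and 569-fold (431 to 768) above rods, and the log2 fold change was 7.77 ± 0.68 (SE, adjusted p = 8.5e-08 by edgeR). Both dogs moved the same way, and the gap between them lay in the rods. In rods without a UMI of any cone marker, *ARR3* stood at 0.275 in N350 and 0.081 in N354, and in rods with at least 1 such UMI at 2.47 and 0.84.

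The opsin kinases divided as the arrestins did. *GRK1* stood at 3.60 (3.46 to 3.75) and 2.79 (2.62 to 2.97) in rods, and at 0.23 (0.16 to 0.33) and 0.089 (0.029 to 0.21) in cones, the latter from 33 and 5 UMIs. Its log2 fold change for cones over rods was -4.30 ± 0.35 (SE, adjusted p = 3.9e-08 by edgeR). *GRK7* stood at 6.88 (6.45 to 7.32) and 7.71 (7.01 to 8.47) in cones, and at 0.074 (0.055 to 0.098) and 0.028 (0.013 to 0.051) in rods. Cones held 92.6-fold (69.9 to 125) and 277-fold (149 to 582) more of it, a log2 fold change of 7.20 ± 0.36 (SE, adjusted p = 1.6e-10 by edgeR). The levels of *GRK7* in the cones of the 2 dogs lay within 1.12-fold of each other.

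*RGS9* and *RCVRN* were shared by rods and cones. *RGS9* stood at 13.8 (13.6 to 14.1) and 31.7 (31.1 to 32.3) in rods and at 12.2 (11.6 to 12.8) and 26.5 (25.2 to 27.9) in cones. N354 was 2.29-fold above N350 in rods and 2.18-fold in cones, so the dogs differed more than the classes did. Cones held 0.88 times (0.83 to 0.93) the rod level in N350 and 0.84 times (0.79 to 0.88) in N354. The log2 fold change of -0.09 ± 0.39 (SE, adjusted p = 0.91 by edgeR) did not pass, which does not show equal levels.

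*RCVRN* stood at 97.5 (96.7 to 98.2) and 136 (135 to 138) in rods and at 139 (137 to 141) and 243 (239 to 247) in cones. Every gated cone of both dogs held at least 1 *RCVRN* UMI. Cones were 1.43-fold (1.41 to 1.45) and 1.78-fold (1.75 to 1.82) above rods in counting terms. The fit did not call this difference, at a log2 fold change of 0.89 ± 0.52 (SE, adjusted p = 0.27 by edgeR).

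The cyclase activators split into a shared gene, a rod gene and a cone gene. *GUCA1A* stood at 63.8 (62.5 to 65.1) in cones and 30.8 (30.4 to 31.3) in rods of N350. In N354 the same levels were 12.7 (11.8 to 13.7) and 4.92 (4.70 to 5.16). Within each dog cones were above rods, by 2.07-fold (2.02 to 2.12) and 2.59-fold (2.37 to 2.83), with a log2 fold change of 1.38 ± 0.39 (SE, adjusted p = 0.018 by edgeR). DESeq2 with the same dog term did not call it, at a log2 fold change of 1.5 and an adjusted p of 0.38.

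*GUCA1B* stood at 15.9 (15.6 to 16.2) and 2.94 (2.77 to 3.13) in rods, and at 0.78 (0.65 to 0.95) and 0.34 (0.20 to 0.53) in cones. Cones held 0.049 times (0.040 to 0.059) the rod level in N350 and 0.11 times (0.069 to 0.18) in N354, a log2 fold change of -3.89 ± 0.39 (SE, adjusted p = 5.2e-07 by edgeR). In rods, N354 held 0.16 times the *GUCA1A* level and 0.18 times the *GUCA1B* level of N350, whereas for the other 5 genes called higher in rods or shared, *SAG*, *GRK1*, *RGS9*, *RCVRN* and *GUCY2F*, the same ratio lay between 0.77 and 2.29. The 2 genes are neighbours in the RefSeq annotation of UU_Cfam_GSD_1.0. How the gene lists of the dogs bear on this was not tested.

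*GUCA1C* was found in cones. It had 271 UMIs in 264 cones of N350 and 58 in 151 cones of N354, or levels of 1.92 (1.69 to 2.16) and 1.03 (0.78 to 1.33). The 5582 rods of N350 held 20 of its UMIs and the 3012 rods of N354 held 0. Cones were 65.8-fold (41.8 to 109) above rods in N350. In N354 cones were 123-fold higher with 3 UMIs put in place of the 0 in rods, a value that leaves out counting error. edgeR called it at an adjusted p of 2.5e-08, and DESeq2 did not (adjusted p = 0.42).

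*GUCY2F* was the reverse. Its level was 0.61 (0.56 to 0.68) and 0.93 (0.84 to 1.04) in rods, from 422 and 335 UMIs, and cones held 1 UMI in N350 and 0 in N354. Rods were at least 17.5-fold higher in N354, counted in the same way. Cones of N350 held 0.012 times (0.00029 to 0.064) the rod level. The test called it lower in cones with an adjusted p of 1.9e-07 by edgeR.

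**Figure D2:**
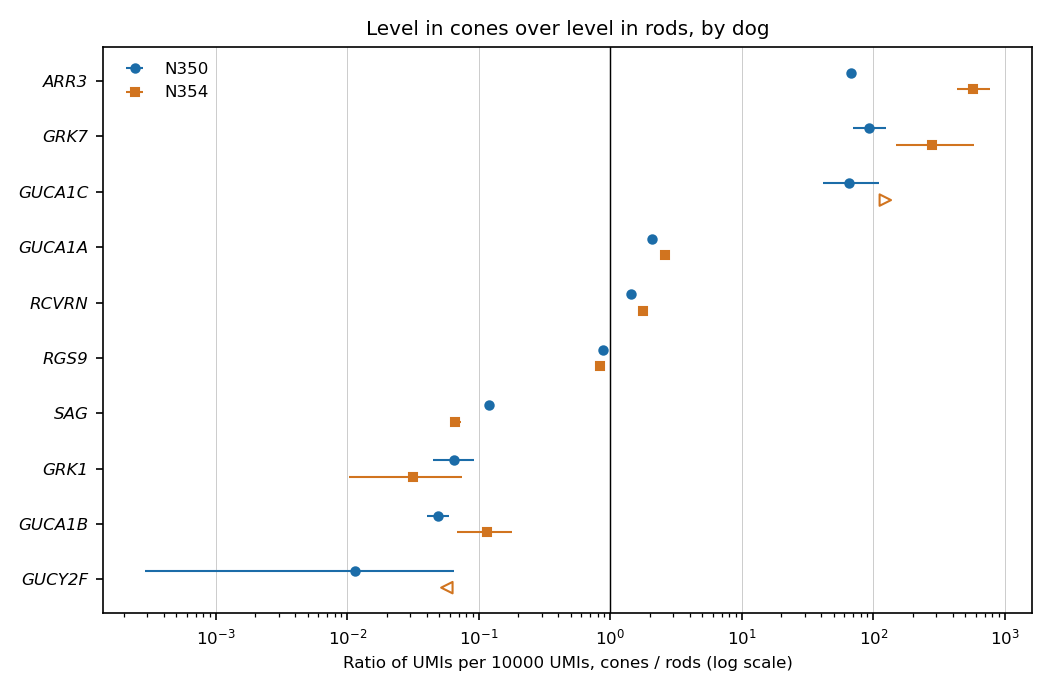
Ratio of the level in cones to the level in rods for each gene and dog (log axis), with exact conditional 95% intervals, and a line at a ratio of 1. Open triangles are values for N354 where 1 of the classes had no UMI and was given 3 UMIs. *ARR3*, *GRK7* and *GUCA1C* lie at 65.8-fold or more, *RGS9*, *RCVRN* and *GUCA1A* between 0.84 and 2.59, and the other 4 at 0.12 or below.

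Cones of the dog carry either a short-wave opsin (*OPN1SW*, S cones) or a long/medium-wave opsin (*OPN1LW*, L/M cones). Cones with at least 5 *OPN1SW* UMIs, and more of them than of *OPN1LW*, were taken as S cones, and those with at most 1 *OPN1SW* UMI as L/M cones. This gave 33 S cones and 229 L/M cones in N350, and 12 and 139 in N354. *OPN1LW* stood at 2.56 and 6.51 in L/M cones and *OPN1SW* at 105 and 128 in S cones. L/M cones are thus chiefly cones without *OPN1SW*, and 133 of the 229 and 92 of the 139 held a UMI of *OPN1LW*.

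The rod arrestin *SAG* was high in S cones and not in L/M cones. S cones of N350 held it at 54.0 (50.7 to 57.6) and those of N354 at 60.1 (53.9 to 66.8). In L/M cones it was 4.64 (4.27 to 5.04) and 2.41 (2.0 to 2.87), next to 4.14 (4.0 to 4.29) and 2.30 (2.12 to 2.48) in Müller glia, which are not photoreceptors. S cones were 11.6-fold (10.5 to 12.9) and 25-fold (20.3 to 31.0) above L/M cones. The log2 fold change was 3.89 ± 0.42 (SE, adjusted p = 2.9e-07 by edgeR), and 0.193% of the 11922 genes tested, 23 in all, were called in this comparison. Of the 10 genes, *SAG* alone was called there. The comparison rests on 12 S cones in N354, fewer than the 20 cells per sum required elsewhere, and without the dog as a block the adjusted p was 1.

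Cell by cell, 32 of the 33 S cones of N350 and all 12 of N354 held a *SAG* UMI. Their medians were 49.1 and 62.7 per 10000 UMIs, with lowest values of 0 and 8.0 and highest values of 155 and 96.7. In L/M cones the medians were 1.68 and 0. A level of 20 or more was reached by 28 of 33 and 9 of 12 S cones, against 25 of 229 and 3 of 139 L/M cones. The ranges of single cells therefore overlapped, and the medians lay far apart in both dogs. Cells with at least 1000 UMIs were also thinned to 1000 UMIs each, and cells with fewer were left out. Of these, 92.8% and 90.7% of S cones would hold a *SAG* UMI. The shares were 31.2% and 19.4% for L/M cones and 29.2% and 16.6% for Müller glia.

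Rod markers did not move with *SAG* to the same degree. The 7 rod markers together stood at 13.6 (11.9 to 15.4) in S cones and 10.8 (10.2 to 11.4) in L/M cones of N350, and at 5.45 (3.70 to 7.73) and 8.60 (7.81 to 9.45) in N354. Among cones at or under the median rod marker level of L/M cones, *SAG* stood at 54.3 in 12 S cones and 1.15 in 115 L/M cones of N350. In N354 these levels were 63.6 in 8 S cones and 1.02 in 70 L/M cones. The ratio among such cones was 47.4 (37.4 to 60.5) and 62.3 (43.6 to 91.6).

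**Figure D3:**
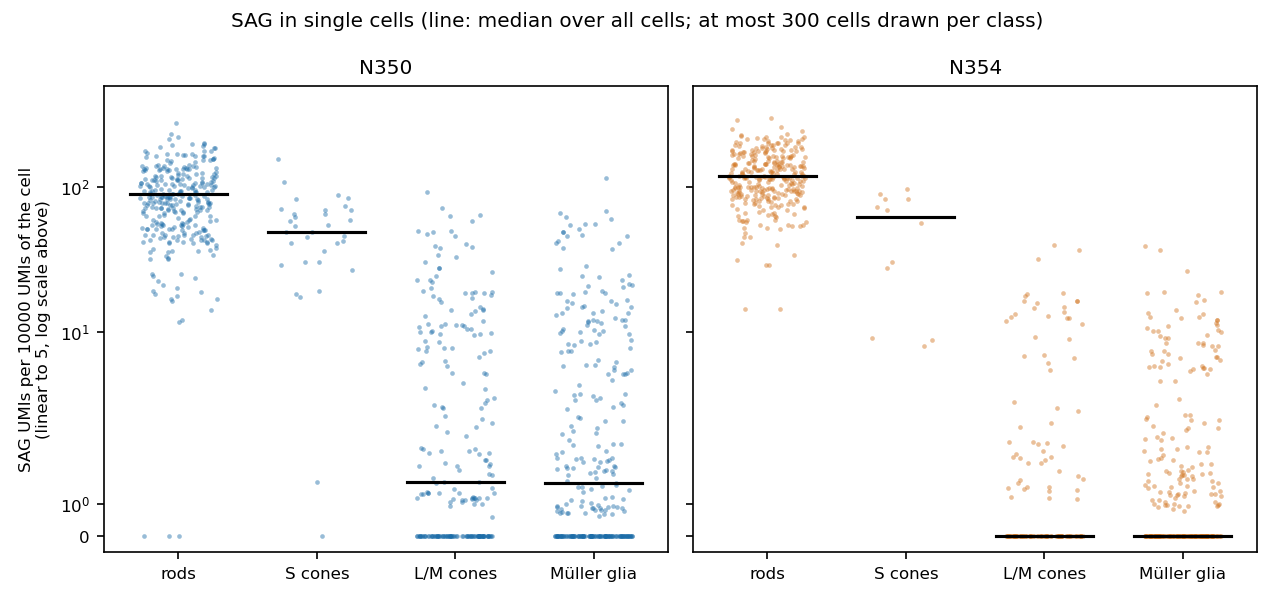
*SAG* UMIs per 10000 UMIs of the cell in rods, S cones, L/M cones and Müller glia of each dog, 1 point per cell with at most 300 drawn per class. The axis is linear up to 5 and logarithmic above, and black lines are medians over all cells of the class. Medians are 89.2 and 119 in rods and 49.1 and 62.7 in S cones, and the L/M cones lie low with Müller glia.

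With S cones taken apart, *SAG* in L/M cones did not differ from Müller glia by the test, at a log2 fold change of -0.60 ± 0.38 (SE, adjusted p = 0.22 by edgeR). There 42.1% of genes were called and the median over all genes was -0.40. The 7 of the 10 genes that were called comprised 6 higher in L/M cones, which were *ARR3*, *GRK7*, *RGS9*, *RCVRN*, *GUCA1A* and *GUCA1C*, and *GUCY2F* as lower. *GUCY2F* had 0 UMIs in the L/M cones of both dogs, against 17 and 6 in Müller glia. The level that 0 UMIs allow in L/M cones, 0.030 and 0.073 as the upper limit, lies above the 0.022 of Müller glia in either dog. The counts of neither dog alone therefore show L/M cones to be lower, and the call comes from the fit of both dogs.

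The cone genes were present in both kinds of cone. *ARR3* stood at 41.4 (38.4 to 44.5) in S cones and 59.9 (58.5 to 61.3) in L/M cones of N350, and at 58.2 (52.1 to 64.8) and 81.5 (79.0 to 84.0) in N354. The ratio of S to L/M cones was 0.69 (0.64 to 0.75) and 0.71 (0.64 to 0.80), close in the 2 dogs, but the fit did not call it (log2 fold change -0.81 ± 0.44, adjusted p = 1 by edgeR). *GRK7* gave a ratio of 1.23 (1.03 to 1.47) and 1.13 (0.82 to 1.53). *GUCA1C* gave 1.45 (1.04 to 1.99) and 1.43 (0.58 to 3.03), the latter from 8 UMIs in S cones. *RCVRN* gave 0.89 (0.85 to 0.93) and 0.80 (0.75 to 0.85). For *GUCA1A* the dogs fell on opposite sides, at 1.06 (0.997 to 1.13) and 0.74 (0.55 to 0.97).

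**Figure D4:**
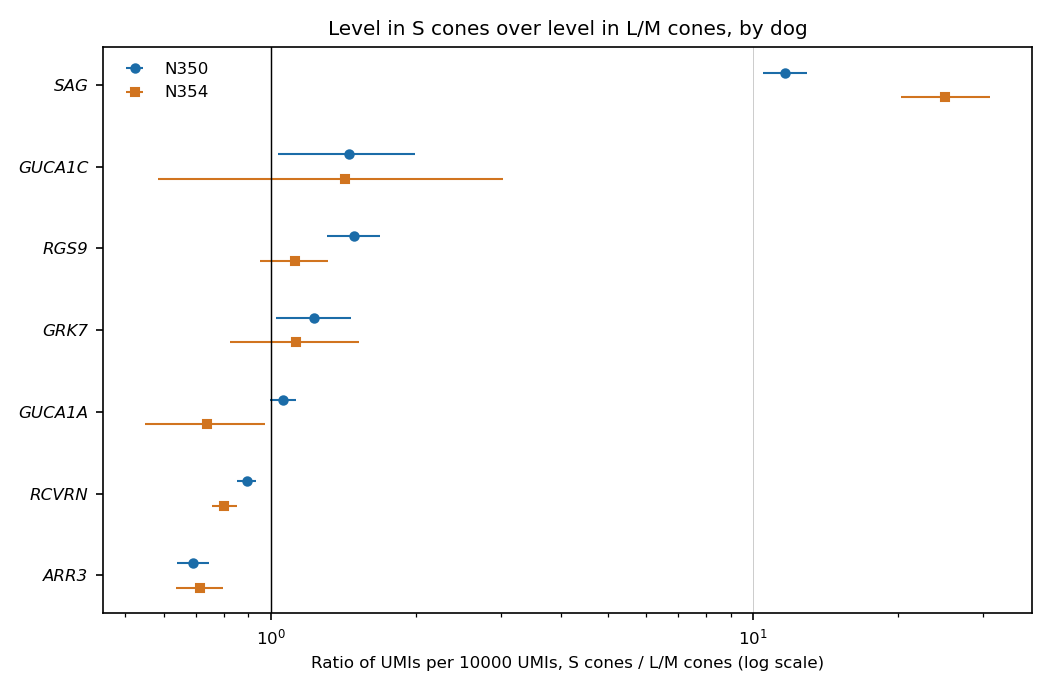
Ratio of the level in S cones to the level in L/M cones of each dog (log axis), with exact conditional 95% intervals, for the 7 genes with more than 5 UMIs in S cones of each dog. *SAG* lies at 11.6 and 25, and the other 6 genes lie between 0.69 and 1.49.

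UMIs of *SAG*, *RGS9* and *RCVRN* were found in bipolar, horizontal and amacrine cells and Müller glia of both dogs. The level in Müller glia was taken as the background. Median UMIs per cell were 1057 and 1012.5 in rods, 5763.5 and 3751 in cones, and 6286 and 5846 in Müller glia. How this gap in depth bears on the background and on calls against it was not tested. Against this background, 9 of the 10 genes were called higher in rods, where 25.8% of genes were called higher. In cones 7 of the 10 were, where 19.8% were. *GRK7* was the exception in rods (log2 fold change -0.49 ± 0.40, adjusted p = 0.32 by edgeR). For *ARR3* in rods the call was lost with a stricter gate (0.46, adjusted p = 0.50 by edgeR), and for *GUCA1C* likewise (0.71, adjusted p = 0.48 by edgeR). *GUCA1C* had 20 UMIs in rods and 2 in Müller glia of N350, and 0 in either class of N354. Its call in rods thus rests on N350. *GRK1*, *GUCA1B* and *GUCY2F* were not called in cones, with log2 fold changes of 0.36, 0.36 and -2.43 and adjusted p-values of 0.50, 0.50 and 0.064 by edgeR.

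The genes high in rods were also set against the rod markers. For each gene its UMIs per UMI of the 7 rod markers were divided by the same quantity in rods. In Müller glia this ratio was 1.0 (0.97 to 1.04) and 0.88 (0.81 to 0.95) for *SAG*, 0.97 (0.94 to 1.0) and 0.98 (0.91 to 1.05) for *RCVRN*, and 0.97 (0.88 to 1.06) and 0.999 (0.86 to 1.16) for *RGS9*. *GRK1*, *GUCA1A*, *GUCA1B* and *GUCY2F* ranged from 0.69 to 1.49.

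Over these 7 genes and 5 classes outside the photoreceptors, 3 genes stood above that proportion in the same class of both dogs with both intervals above 1. They were picked with their values in view. *RCVRN* did so in OFF bipolar cells, at 2.17 (1.72 to 2.71) in N350 and 4.94 (3.89 to 6.18) in N354. Its level there was 9.21 (7.28 to 11.5) and 16 (12.6 to 20.1), against 6.28 (5.67 to 6.93) and 1.70 (1.37 to 2.07) in ON bipolar cells. A *RCVRN* UMI was present in 26 of 35 and 14 of 16 OFF bipolar cells, and in 142 of 266 and 67 of 234 ON bipolar cells. The OFF and ON classes were poorly separated by the OFF markers in N350. OFF bipolar cells held OFF markers at 35.6 and 28.1, against 26.4 and 5.43 in ON bipolar cells. They held ON markers at 32.7 and 27.0, against 165 and 220 in ON bipolar cells. The gap in ON markers is set by the gate, in which ON markers took precedence. The 8 cone markers together stood at 1.53 and 4.22 in OFF bipolar cells and at 2.37 and 0.14 in ON bipolar cells, and their part in the result was not tested. Against Müller glia *RCVRN* was not called, at a log2 fold change of 0.71 ± 0.48 (SE, adjusted p = 0.36 by edgeR), where the median over all genes was -0.66 and 18.8% were called. Without scaling beyond library size it was called, at 1.89 (adjusted p = 0.0052), where that median was 0.44.

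*RGS9* stood above the proportion in amacrine cells, at 2.65 (2.30 to 3.04) and 4.66 (3.41 to 6.22). Its level was 1.06 (0.92 to 1.22) and 1.78 (1.30 to 2.37), against 0.59 (0.54 to 0.65) and 0.66 (0.57 to 0.77) in Müller glia. The test against Müller glia did not call it (log2 fold change 0.27 ± 0.43, adjusted p = 0.65 by edgeR), in a comparison where 40.7% of genes were called. There *SAG*, *GRK1* and *GUCA1A* were called lower in amacrine cells, by log2 fold changes of -1.46, -1.58 and -1.33 with adjusted p-values of 0.019, 0.014 and 0.038 by edgeR. None of these 3 calls held without scaling beyond library size.

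*GUCY2F* stood above it in ON bipolar cells, at 4.25 (2.11 to 7.69) and 9.59 (4.35 to 18.4). These values rest on 11 and 9 UMIs, in 9 of 266 and 9 of 234 cells, and its level was 0.18 (0.088 to 0.32) and 0.16 (0.074 to 0.305). It was called over Müller glia, with a log2 fold change of 2.31 ± 0.49 (SE, adjusted p = 0.0011 by edgeR). It was the only 1 of the 10 called there, where 36.5% of genes were called. ON bipolar cells held a median of 1969 and 2505.5 UMIs, against 6286 and 5846 in Müller glia. How this gap in depth bears on the call was not tested.

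**Figure D5:**
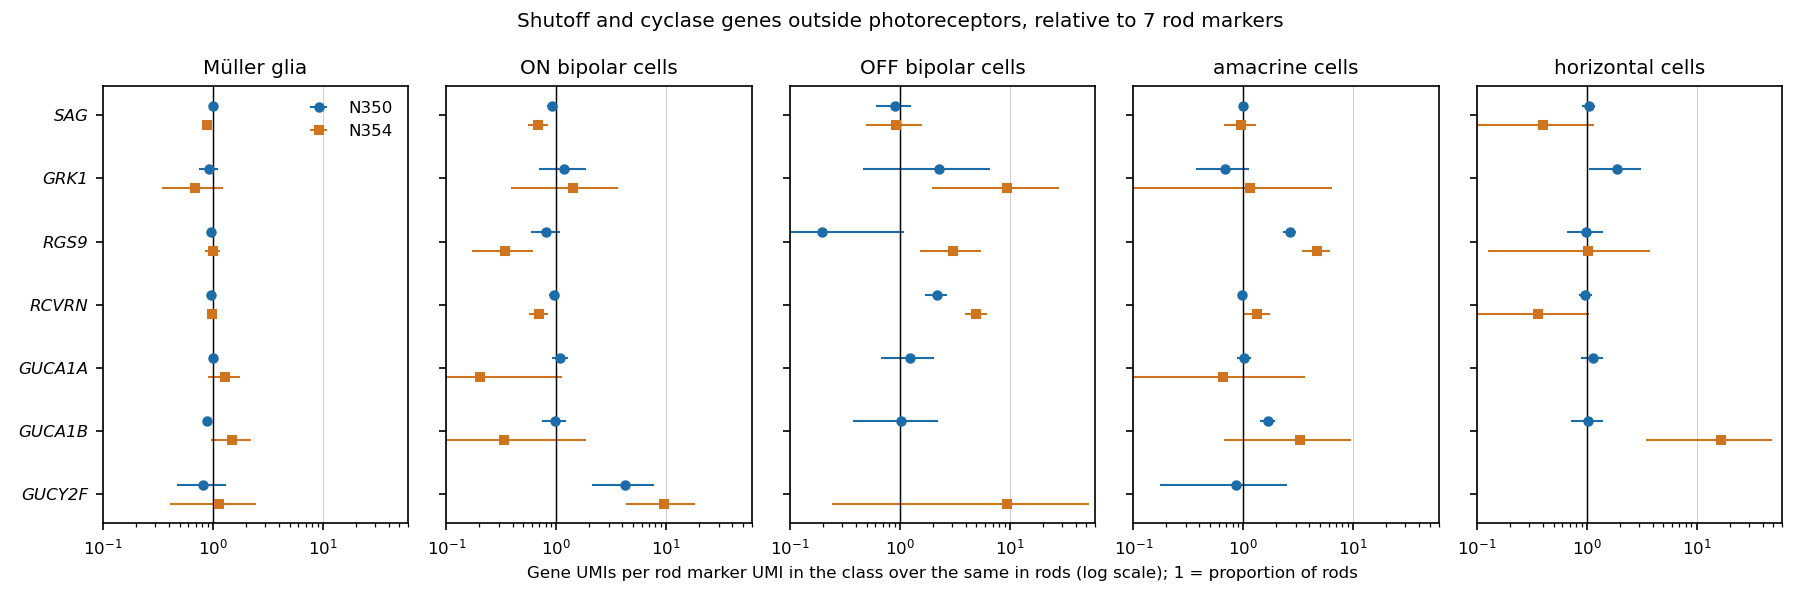
UMIs of 7 genes per UMI of the 7 rod markers in 5 classes, divided by the same in rods (log axis), for N350 (circles) and N354 (squares) with exact 95% intervals, cut at the axis ends. A gene without a UMI has no point, and 1 is the proportion found in rods. Müller glia lie between 0.69 and 1.49, while *RCVRN* in OFF bipolar cells, *RGS9* in amacrine cells and *GUCY2F* in ON bipolar cells lie at 2.17 or more in both dogs.

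Rods also differed by their share of mitochondrial UMIs. In the third of rods with the highest share, *GUCY2F* stood at 0.53 (0.41 to 0.68) and 0.47 (0.35 to 0.64) times its level in the third with the lowest, and at 0.58 and 0.53 times when mitochondrial UMIs were left out of the total. Also lower were *SAG* (0.74 and 0.87), *GRK1* (0.72 and 0.74), *RGS9* (0.64 and 0.76), *GUCA1A* (0.74 and 0.86) and *GUCA1B* (0.64 and 0.79). With mitochondrial UMIs left out, the intervals of *SAG*, *GUCA1A* and *GUCA1B* in N354 reached 1. *RCVRN* stood at 0.82 (0.81 to 0.84) and 0.99 (0.97 to 1.01) times, and at 0.91 (0.89 to 0.93) and 1.11 (1.09 to 1.14) times with mitochondrial UMIs left out, so that its direction in N354 depends on the total used. *ARR3* was the other way round, at 4.62 (3.60 to 5.99) and 2.12 (1.04 to 4.67) times. *GRK7* stood at 3.97 (1.60 to 11.7) and 1.0 (0.17 to 6.83) times. *GUCA1C* stood at 2.94 (0.76 to 16.6) times in N350 and had no UMI in these rods of N354. Median UMIs per cell were 988 and 980 in those groups of N350, lowest share first, and 898 and 1052 in those of N354.

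Of 19 partner genes of the same steps, 16 were tested for cones over rods, and 3 were higher, 6 lower and 7 not called. Over all genes tested, 9.54% were called higher and 7.94% lower. The median log2 fold change was -0.73 over the partner genes and -0.21 over all genes. Calcium leaves photoreceptors through sodium, calcium and potassium exchangers, and the exchanger gene *SLC24A1* was lower in cones (-4.69) while *SLC24A2* (7.18) and *SLC24A4* (6.37) were higher. Of the transducin beta subunits, *GNB1* was lower (-4.70) and *GNB3* higher (6.57). *PDE6G*, an inhibitory subunit of the phosphodiesterase, was lower (-4.89), as were *UNC119* (-0.80), a lipid-binding chaperone, and the retinol dehydrogenases *RDH12* (-1.28) and *RDH8* (-1.58).

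The RGS9 anchor *RGS9BP* and its beta subunit partner *GNB5* were not called, with log2 fold changes of -0.72 ± 0.32 and -0.49 ± 0.22 (SE). *GUCY2D*, which encodes the other retinal cyclase, was not called either, at -0.76 ± 0.29 (SE, adjusted p = 0.088 by edgeR). Its levels were 0.67 and 0.76 in rods and 0.47 and 0.30 in cones, so cones held *GUCY2D* UMIs where they held 1 or 0 of *GUCY2F*.

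The list of paralogs that other cells use held 16 names, with *GRK2* and *GRK3* also under their older names *ADRBK1* and *ADRBK2*. Of these names, 13 were tested for cones over rods. Of the 13, 3 were higher, 2 lower and 8 not called, where 17.5% of all genes were called. Their median log2 fold change was -0.09, against -0.21 over all genes. *GRK3*, a kinase of other receptors, was higher in cones (3.29), as were the neuronal calcium sensors *NCALD* (4.55) and *NCS1* (3.11). Over Müller glia, *GRK3* was not called in cones (-0.20) and was lower in rods (-3.49), while *NCALD* (1.03) and *NCS1* (1.89) were higher in cones. *HPCAL1*, of the same calcium sensor family, was lower (-2.30), and so was *RGS6* (-5.71 ± 1.84, SE), which lay below Müller glia in rods (-2.15) and cones (-7.86). Over Müller glia, 2 of the 13 were higher and 4 lower in rods, and 4 were higher and 4 lower in cones. The 2 higher in rods were *GRK5* (3.97) and *RGS7* (2.99), and both were also higher in cones (4.17 and 2.88). Of all 11909 genes tested, 25.8% were called higher in rods and 19.8% in cones over Müller glia. Called lower were 3454 of them in rods and 2759 in cones. The arrestins *ARRB1* and *ARRB2*, which serve other receptors, were not called, with log2 fold changes of 0.99 ± 0.68 and -0.09 ± 0.50.

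Over the 12 sums of 6 classes in 2 dogs, the gene with the most similar pattern among 7733 was *PDE6B* for *SAG* (Pearson's r 0.989 on log levels), *GNGT2* for *ARR3* (0.995), *USP1* for *GRK1* (0.988) and *MAP3K5* for *GRK7* (0.994). For the shared genes it was *PEX5L* for *RGS9* (0.985), *RSBN1L* for *RCVRN* (0.993) and *IMPG2* for *GUCA1A* (0.993). *CDK1* was most similar to *GUCA1B* (0.966), *GNAT2* to *GUCA1C* (0.995) and *KLC3* to *GUCY2F* (0.986). Each gene's mean over the classes of a dog was first subtracted from its log levels. Constant differences between the dogs therefore do not enter r. *PDE6B*, *GNGT2* and *GNAT2* are among the markers that defined the classes, and sums of 1 dog share a library, so these values only describe.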

How the data were processed

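Per the file headers the authors counted reads with Cell Ranger 6.0.2, and the study's methods name canFam6. What was deposited is the unnormalized UMI count of each gene in each cell. The dogs list different genes, and the 15224 names listed in both dogs were used, with rows of the same name summed.

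Cells with at least 200 genes were classed by summed marker UMIs per 10000 (rods at least 60, cones 100, Müller glia 50, ON bipolar cells 60, OFF bipolar cells 15, horizontal cells 30, amacrine cells 10), with at least 3 UMIs of 2 markers and 1 class per cell. Of N350 and N354, 787 and 174 cells passed no class and 423 and 283 more than 1. ON markers took precedence over OFF markers. Doublets were not removed first. Removing the 4% of cells with the highest Scrublet scores (scanpy 1.11.5), other gates and mitochondrial limits were alternatives. No mitochondrial limit was set, because the study's limit of 5% mitochondrial content, if read over names starting with MT- (the names it used are not given in the sources used here), keeps all 8900 cells of N350, which lists 1 such name, and 1369 of the 4392 of N354.

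UMIs were summed per dog and class with at least 20 cells. The contrasts with S cones, L/M cones and OFF bipolar cells used a fit with at least 10 cells per sum, and they and the contrast of amacrine cells were chosen after the values were seen. Genes with at least 10 UMIs were tested with edgeR 4.0.16 (TMM, quasi-likelihood, dog as block, Benjamini-Hochberg adjustment). DESeq2 1.42.0 was an alternative. The sums of a dog come from the same animal, and their deviations from the class means correlated between 0.55 and 0.82 over 11909 genes. On simulated data for cones over rods, 189 of 200 genes changed by a log2 fold of 2 were recovered among 11745 genes, with 10 false calls. The simulation had no difference between the dogs and the same spread for every gene, and its changed genes were drawn from the better counted ones. Its rates are therefore not those of the tests on the real sums. Levels and ratios have exact Poisson or conditional 95% intervals (scipy 1.17.1). Named genes were the 10, the partner and paralog genes that passed for cones over rods, others of known role, and the genes of most similar pattern. The members, lists and tests were chosen with earlier results of these data known.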

Additional observations from a re-analysis of the deposited data

How the results depend on the processing

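The dog block decided the counts of calls. Without it 171 genes were called for cones over rods, 1661 for rods, 1379 for cones, 1069 for ON bipolar cells, 915 for amacrine cells, 625 for OFF bipolar cells and 1276 for L/M cones over Müller glia, and 1 for S cones over L/M cones, where *SAG* kept a log2 fold change of 3.75 with an adjusted p of 1. For cones over rods the calls of *SAG*, *ARR3*, *GRK1*, *GUCA1A*, *GUCA1B* and *GUCA1C* were lost without the block. S cones over L/M cones gave 8 calls with DESeq2 and 48 with at least 1 UMI in place of 10, against 23. Of 600 log2 fold changes of the 10 genes under the other settings, 572 stayed on their side of the threshold, 19 lost and 9 gained a call. No value that was called in either fit changed direction, and the direction of values called in neither was not compared. Within single dogs the log2 ratio of S to L/M cones for *GUCA1A* was -0.44 in N354 and 0.084 in N350. Of 129 log2 ratios of levels under other settings, 122 moved by less than the SD between the dogs and 6 moved by more. The remaining 1, this *GUCA1A* ratio in N350, changed sign. These settings included each dog alone. The value of either dog always lies within that SD of the mean of both, so such values could not move by more. For them the count of 122 is no measure of stability. Counts of S cones and OFF bipolar cells limit those comparisons. The cause of these changes was not tested.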
